A study of Mus musculus with 4 samples.

Results

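The aquaporins are the membrane water channels of the body, and the type 2 vasopressin receptor (Avpr2) is the receptor through which the hormone vasopressin controls them in the kidney. Transcripts of 9 aquaporins (Aqp1, Aqp2, Aqp3, Aqp4, Aqp5, Aqp6, Aqp7, Aqp8 and Aqp11) and of Avpr2 were followed in structures cut by laser from the fetal mouse kidney. The members were all probe sets whose gene symbol in the platform annotation was one of these names, which gave 21 of 45101 probe sets and 10 of 18193 genes. A probe set is a group of short oligonucleotides on the array that together report the level of a transcript. The cortical collecting duct is the outer stretch of the branching tubes that gather urine from the nephrons. It was represented by 1 array, numbered replicate 3, and the anlage (the embryonic forerunner) of the loop of Henle by 3 arrays, numbered 1 to 3. The group follows the source name in the labels, while the titles of these 3 carry a code, DT, that the labels do not expand. All 4 came from wild-type mice of the outbred CD-1 stock at stage E15.5, counted in embryonic days (Theiler stage 23), with no treatment and sex not recorded. Each array held a pool of about 50 laser-cut sections from 5 kidneys, whose RNA was amplified over 2 rounds. The labels do not say whether pools shared kidneys or litters, so the spread between the anlage arrays may be partly technical, and there is no measured spread for the collecting duct.

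In the adult collecting duct, vasopressin binds Avpr2 on the basolateral side of principal cells and raises cyclic AMP. Protein kinase A then drives vesicles that carry aquaporin-2 to the apical membrane, and cyclic AMP also raises Aqp2 transcription. Water that enters through aquaporin-2 leaves the cell through aquaporin-3 and aquaporin-4 on the basolateral side. Aquaporin-1 serves the proximal tubule and the thin descending limb of the loop of Henle and is also found in red cells and some endothelia, whereas the thick ascending limb is nearly impermeable to water. The comparison asks which of these genes already differed between the collecting duct and the loop anlage in the fetal kidney.

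Promoter sequences are shown for 4 genes whose collecting duct value lay above all anlage values, and for Aqp1, the tested gene whose value lay below them. They are the 250 bases before the annotated start, read 5′ to 3′ on the gene's strand, from RefSeq (build GRCm38.p6). Windows were taken for 9 of the 10 members. Aqp4, whose collecting duct value also lay above all anlage values, was not among them. Capitals mark 4 motifs searched on both strands, so that a capital run may read as the reverse complement. These were GATAA, the core bound by GATA factors, then AGGAA, a core bound by ETS factors, then GACGTCA, most of the cyclic AMP response element, and lastly TATAA, the core of the TATA box. None of the 4 contains another.
Aqp2, chr15:99578806-99579055, + strand: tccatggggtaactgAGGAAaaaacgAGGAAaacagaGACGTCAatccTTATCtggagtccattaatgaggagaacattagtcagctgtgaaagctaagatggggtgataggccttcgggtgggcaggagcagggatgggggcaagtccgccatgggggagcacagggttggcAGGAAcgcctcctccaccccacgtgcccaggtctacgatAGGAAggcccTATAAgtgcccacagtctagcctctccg
Avpr2, chrX:73891852-73892101, + strand: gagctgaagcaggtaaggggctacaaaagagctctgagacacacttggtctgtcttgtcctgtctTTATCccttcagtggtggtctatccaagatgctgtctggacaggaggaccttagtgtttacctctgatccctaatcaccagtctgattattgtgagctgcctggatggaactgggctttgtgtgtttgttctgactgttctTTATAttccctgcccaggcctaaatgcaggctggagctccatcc
Aqp3, chr4:41098184-41098433, - strand: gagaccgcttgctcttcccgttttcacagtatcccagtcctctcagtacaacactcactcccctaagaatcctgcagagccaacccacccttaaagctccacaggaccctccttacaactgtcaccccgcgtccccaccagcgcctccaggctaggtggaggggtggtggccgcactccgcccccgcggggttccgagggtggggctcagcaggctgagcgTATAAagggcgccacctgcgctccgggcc
Aqp5, chr15:99590778-99591027, + strand: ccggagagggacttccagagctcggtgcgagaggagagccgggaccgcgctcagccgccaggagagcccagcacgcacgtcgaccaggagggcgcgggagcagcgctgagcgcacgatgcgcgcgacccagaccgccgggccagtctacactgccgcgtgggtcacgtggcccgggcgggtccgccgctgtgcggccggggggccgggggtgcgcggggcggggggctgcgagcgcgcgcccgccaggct
Aqp1, chr6:55336049-55336298, + strand: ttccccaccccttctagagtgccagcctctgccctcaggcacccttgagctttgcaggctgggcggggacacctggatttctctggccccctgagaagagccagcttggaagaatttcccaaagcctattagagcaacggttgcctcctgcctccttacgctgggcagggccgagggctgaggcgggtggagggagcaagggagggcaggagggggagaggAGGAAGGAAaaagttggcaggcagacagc

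The Aqp2 window held all 4 motifs. GACGTCA began 213 bases before the start, a GATAA match lay 11 bases further on, at 202 bases before it, and TATAA began at 28. AGGAA occurred there 4 times. The Avpr2 window had 1 GATAA match and 1 TATAA match, the Aqp3 window had TATAA alone, the GC-rich Aqp5 window (78.4% G and C) had none of the 4, and the 2 AGGAA matches of Aqp1 overlapped by a base. Among 32851 RefSeq promoter windows of this length, 2.78% held GACGTCA. The GATAA core was in 22.6% of them, the AGGAA core in 60.3% and the TATAA core in 22.8%. A match is a string of letters and was not tested for binding.

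Marker genes are given beside the segment labels. They were chosen with earlier results of these data known, so their direction is not independent evidence for the labels. A marker bright in only the duct or only the anlage can reach the mean needed for testing through that group. Of 13 tested collecting duct markers 13 were higher in the duct array, against 45.1% of all tested genes. Above all 3 anlage arrays lay 11 of them, against 17.3% of all tested genes. All 12 tested loop markers lay below all 3 anlage arrays, against 24.3%. The mean log2 value of the collecting duct markers was 12.96 in the duct and 10.42, 11.02 and 10.34 in the 3 anlage arrays in turn, so array 2 had the highest level of these markers within the anlage. The loop marker mean was 8.59 in the duct and 12.39, 11.04 and 12.15 in the anlage arrays, lowest in array 2 within the anlage. Array 2 also had the highest 3′ to 5′ signal ratio of Gapdh, a sign of shortened RNA, at 54.08 against 10.25 and 26.02 in arrays 1 and 3 and 12.05 in the collecting duct array. Its median deposited signal was the lowest, at 207 against 526 and 344 in arrays 1 and 3 and 403 in the collecting duct array. The part of marker content, RNA quality or array brightness in the differences below was not tested.

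Avpr2 and the aquaporins of the collecting duct principal cell, Aqp2, Aqp3 and Aqp4, were all higher in the duct array than in every anlage array, with mean differences of 0.82 to 3.17 on the log2 scale. Aqp5 followed the same pattern at low signal, while Aqp1 and, at low signal, Aqp7 lay below all 3 anlage arrays. Aqp6, Aqp8 and Aqp11 lay among them. No member passed the test over all genes, since limma with Benjamini-Hochberg adjustment called 0 of 12642 tested genes (0%), and the adjusted p of each tested member was 0.9999. At an unadjusted p under 0.05 limma had 149 genes higher and 282 lower, together 431, which became 1401 without anlage array 1 and 192 without array 3. Values are log2(signal + 109.6) after quantile normalization, and a gene is represented by its brightest probe set.

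Of the 10 members, 6 reached the mean log2 value of 8.416 required for testing (Aqp1, Aqp2, Aqp3, Aqp4, Aqp11 and Avpr2), and 4 did not (Aqp5, Aqp6, Aqp7 and Aqp8). Of the tested members 5 of 6 were higher, against 45.1% of all tested genes. Among them, 4 lay above all anlage arrays, against 17.3% of all tested genes, and 1 lay below them, against 24.3%. Over all 10 members without the filter the counts were 5 above and 2 below, against 18.2% and 25.2% of 18193 genes. Among the 21 probe sets, 11 lay above and 3 below, against 18.7% and 23.5% of the 34945 probe sets with a single gene symbol. The median difference of the tested members was 1.31 against −0.06 for all tested genes, and over all 10 members it was 0.46 against −0.07. A gene that is bright in only the collecting duct can pass the filter through that array, so these counts and medians describe the members and support no call. At an unadjusted p under 0.05, 2 tested members (Aqp4 and Avpr2) were higher and 0 lower by limma, where 1.18% of tested genes were higher and 2.23% lower. Which members were under 0.05 changed with the setting. Avpr2 was not under it with arrays scaled to a common median or without anlage array 3. Aqp1, lower, was under it without array 2. Aqp3, higher, was under it on signals as deposited, with a larger offset and without array 2. With 1 array against 3, the smallest p of an exact permutation test is 0.25, so none was run.

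**Figure D1:**
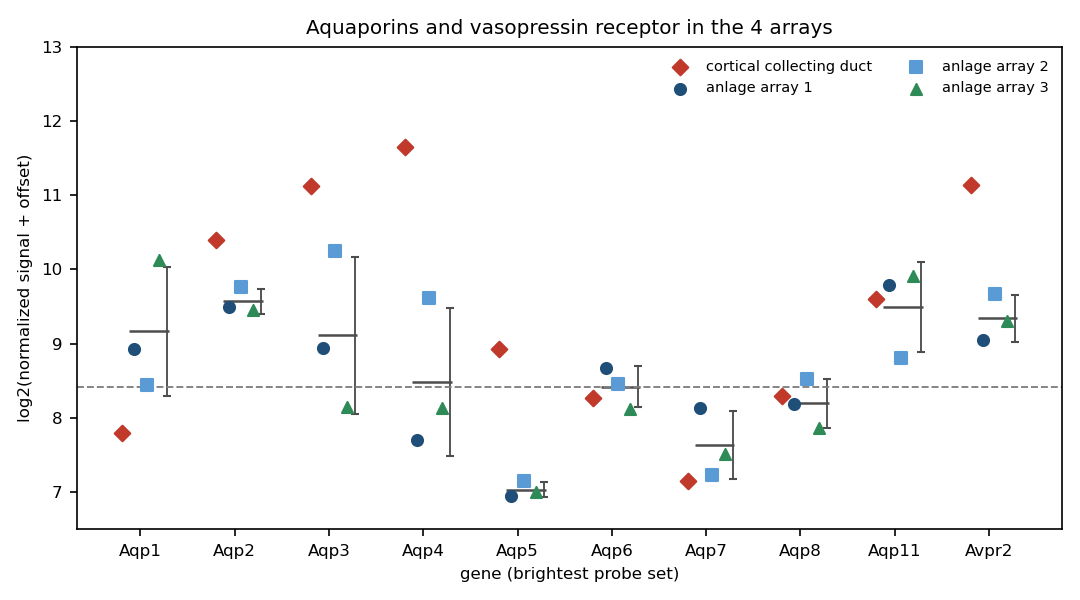
Log2 values (y axis, normalized signal plus offset) of the brightest probe set of each gene (x axis) in the duct array (red diamonds) and the 3 anlage arrays (blue circles, light blue squares, green triangles), with horizontal bars at the anlage mean, error bars of 1 SD (n = 3) and a dashed line at the filter of 8.416. The collecting duct array stands above all anlage arrays for Aqp2, Aqp3, Aqp4, Aqp5 and Avpr2 and below them for Aqp1 and Aqp7; heights of different genes cannot be compared.

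The receptor Avpr2 (probe set 1450277_at) had a deposited signal of 2222 in the collecting duct array and of 589, 465 and 481 in anlage arrays 1, 2 and 3. The groups did not overlap, and the anlage arrays were close to each other. On the normalized log2 scale the collecting duct stood at 11.13 and the anlage at 9.34 ± 0.32 (SD, n = 3). The difference was 1.79 ± 0.54 (SE), a 3.47-fold change on this scale, with a 95% interval from 0.47 to 3.12. The unadjusted p by limma was 0.016 and the adjusted p 0.9999. The Avpr2 difference ranked above those of 99.1% of tested genes. Within its own array the Avpr2 probe set lay at the 80.4th percentile of all probe sets in the collecting duct and at the 52.6th, 62.8th and 57.1st percentile in anlage arrays 1, 2 and 3, above the median of each. In tissue pools fewer cells with a transcript and less transcript per cell cannot be told apart.

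Aqp2, the channel that vasopressin inserts into the apical membrane, showed a smaller difference than that of Avpr2, though the gap between the genes was not tested. Its single probe set (1418903_at) gave signals of 1331 in the collecting duct and 818, 517 and 546 in the anlage arrays, so the collecting duct was the highest of the 4. In log2 units this was 10.39 against 9.57 ± 0.17 (SD, n = 3), a difference of 0.82 ± 0.51 (SE) with a 95% interval from −0.43 to 2.07. The unadjusted p by limma was 0.159, and 93.0% of tested genes had a lower difference. The anlage arrays spread little (SD 0.17), yet the SE was larger because limma draws each gene's variance towards that of genes of like brightness. Aqp2 lay above the median probe set in every array, at the 72.5th percentile in the collecting duct and at the 60.1st, 64.2nd and 59.6th percentile in the anlage arrays.

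Aqp4, a basolateral water channel of principal cells, had the largest difference of the 10 genes, and all 3 of its probe sets showed it. The brightest (1434449_at) gave signals of 3180 in the collecting duct and 143, 436 and 168 in the anlage. The second (1447745_at) gave 1428 against 217, 86.8 and 79.3. The third (1425382_a_at) gave 2603 against 33.0, 37.7 and 79.9. In none of them did the groups overlap, and in deposited signal the highest anlage array was a different array for each probe set. The log2 differences were 3.17, 2.61 and 3.98, and the third probe set was below the filter on its mean because its anlage signals were dim. For the brightest, the collecting duct stood at 11.65 and the anlage at 8.48 ± 1.00 (SD, n = 3), a difference of 3.17 ± 0.83 (SE) with a 95% interval from 1.15 to 5.19. The unadjusted p by limma was 0.00849, and the difference ranked above those of 99.9% of tested genes. Probe sets of a gene share the same RNA and are not replicates.

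Aqp3, the other basolateral channel, which also carries glycerol, rested on 1 of its 4 probe sets. That probe set (1450460_at) gave 2218 in the collecting duct and 542, 849 and 170 in the anlage, the collecting duct being the highest and the anlage arrays spread widely. Its log2 values were 11.13 and 9.11 ± 1.06 (SD, n = 3), a difference of 2.02 ± 0.86 (SE) with a 95% interval from −0.09 to 4.12. The unadjusted p by limma was 0.0575. The other Aqp3 probe sets were below the filter, with differences of −0.09, 0.93 and 0.05. Averaging all 4 in place of taking the brightest gave an Aqp3 difference of 0.73 and put the gene below the filter. Within the anlage, Avpr2, Aqp2, Aqp3 and the brightest Aqp4 probe set all had their highest log2 value in array 2, the array with the highest collecting duct marker mean and the highest Gapdh ratio, although in deposited signal Avpr2 and Aqp2 were highest in array 1. Without array 2 the differences of Avpr2, Aqp2, Aqp3 and Aqp4 were 1.82, 0.85, 2.43 and 3.53, and their adjusted p by limma was 0.0751 for Aqp4 and larger for the others.

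**Figure D2:**
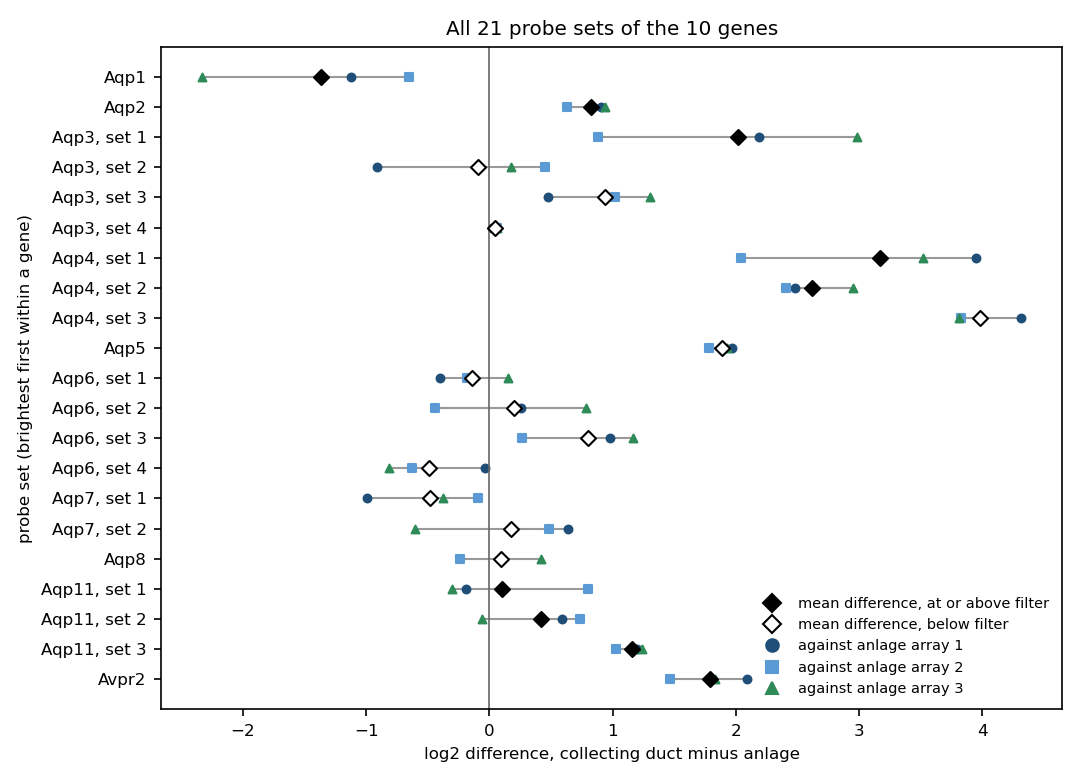
Log2 difference of the collecting duct array from the anlage (x axis) for each of the 21 probe sets (y axis), with black diamonds for the mean difference of probe sets at or above the filter, open diamonds for those below it, small symbols for the difference from each anlage array and lines over their range. All 3 Aqp4 probe sets lie between 2.61 and 3.98, whereas those of Aqp3 run from −0.09 to 2.02 and those of Aqp6 from −0.49 to 0.80.

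Aqp5 and Aqp6, which lie next to Aqp2 on chromosome 15 in the order Aqp2, Aqp5, Aqp6, differed from each other. Aqp5 is the water channel of salivary and lacrimal glands and of lung epithelium. Its probe set (1418818_at) gave 409 in the collecting duct and 20.5, 16.4 and 18.9 in the anlage arrays. The collecting duct was the highest, as it was for 18.2% of all genes without the filter. Within its own array this was the 50.3rd percentile of probe sets in the collecting duct and the 4.88th, 11.3th and 6.58th percentile in the anlage arrays. In log2 units Aqp5 stood at 8.92 against 7.03 ± 0.10 (SD, n = 3), a difference of 1.89 that was 3.06 with a smaller offset and 0.93 with a larger one, so its size depends on the offset. Its mean was below the filter, and it was tested only in the fit without the filter, where limma gave an unadjusted p of 0.00124 and an adjusted p of 0.99996.

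Aqp6, a channel of intracellular vesicles in acid-secreting intercalated cells, showed no common direction over its 4 probe sets. Its brightest (1420035_at) gave 207 in the collecting duct and 432, 129 and 166 in the anlage, the collecting duct lying among the anlage arrays. The log2 differences of the 4 were −0.14, 0.20, 0.80 and −0.49, and all were below the filter. Markers of intercalated cells, chosen with earlier results known, were given beside both genes. Of the 4 tested ones 2 were higher and 2 lower in the duct array, and the list mean over its 6 measured genes was 9.48 against 9.75, 9.07 and 8.88. Foxi1, the transcription factor that specifies these cells, was below the filter at 9.51 against 7.47, 7.87 and 7.25, while the tested proton pump subunit Atp6v1b1 lay below all anlage arrays at 7.80 against 10.45, 8.07 and 8.58. Slc26a4 (pendrin) was near the bottom of the scale in all 4 arrays, from 7.07 to 7.33. The part of these cells in the Aqp5 value was not tested.

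Aqp1, the constitutive water channel of the proximal tubule and thin descending limb, was the 1 tested member whose duct value was lower. Its probe set (1416203_at) gave 114 there and 534, 128 and 946 in the anlage arrays. The collecting duct was the lowest of the 4, but anlage array 2 came close to it in deposited signal. In log2 units Aqp1 stood at 7.80 against 9.16 ± 0.87 (SD, n = 3), a difference of −1.37 ± 0.75 (SE) with a 95% interval from −3.21 to 0.47 and an unadjusted p of 0.119 by limma. Of tested genes, 3.22% had a more negative difference. Without anlage array 3, the highest for Aqp1, the difference was −0.91 and the gene was below the filter.

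Markers of the other cell types that carry aquaporin-1 are given beside it. Of 12 measured proximal tubule markers 11 were tested and lower, 6 of them below all anlage arrays (24.3% of all tested genes lay there), while the untested Slc22a8 lay above all of them at 8.74 against 8.07, 8.36 and 7.39. The proximal markers had list means of 9.18 in the collecting duct and 9.96, 10.10 and 9.81 in anlage arrays 1, 2 and 3. All 8 tested endothelial markers were lower, 5 of them below all anlage arrays, with means of 8.72 against 9.54, 10.26 and 10.31. Of 7 measured erythroid markers 2 were tested, both lower, while the untested Hbb-bh1 and Gata1 differed by 0.41 and 0.37. The erythroid list mean was 8.37 against 8.63, 8.62 and 8.56, with the globin Hba-a1 at 7.43 to 7.92 over the 4 arrays, under the filter. Slc4a1 stands in both the erythroid and the intercalated list. Within the anlage Aqp1 was lowest in array 2. Of the list means, the loop mean was lowest in array 2, at 11.04 against 12.39 in array 1 and 12.15 in array 3. The proximal and erythroid means were lowest in array 3 and the endothelial mean in array 1. There was no separate list for the thin descending limb. The part of the loop or of these cell types in the Aqp1 values was not tested.

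The remaining aquaporins differed little or were dim. Aqp11, an intracellular aquaporin of the proximal tubule whose loss in mice causes kidney cysts, gave 742 in the collecting duct and 995, 187 and 792 in the anlage for its brightest probe set (1447606_x_at), with the collecting duct among the anlage arrays. The log2 difference was 0.10 ± 0.64 (SE), with a 95% interval from −1.46 to 1.66. Its other probe sets differed by 0.42 and 1.16, and the last of these (1455846_at) lay above all anlage arrays at 1156 against 565, 273 and 359. Leaving out array 1 or array 3 changed which Aqp11 probe set was brightest, and over the refits the difference ran from −0.23 without array 2 to 1.11 without array 3.

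Aqp7, an aquaglyceroporin of fat and of the straight proximal tubule, gave 30.6 in the collecting duct and 251, 20.7 and 76.2 in the anlage for its brighter probe set (1418848_at). After normalization the collecting duct was the lowest at 7.15 against 7.63 ± 0.46 (SD, n = 3), but in deposited signal it lay above anlage array 2. The second Aqp7 probe set, whose _x_ suffix marks probes that can bind other transcripts, differed by 0.17. Aqp8, a channel of liver, pancreas and gut, gave 211 against 265, 140 and 124, and its log2 difference of 0.09 was less than the anlage SD of 0.33. Aqp6, Aqp7 and Aqp8 were below the filter, and in the fit without it limma gave them unadjusted p values of 0.784, 0.32 and 0.855.

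**Figure D3:**
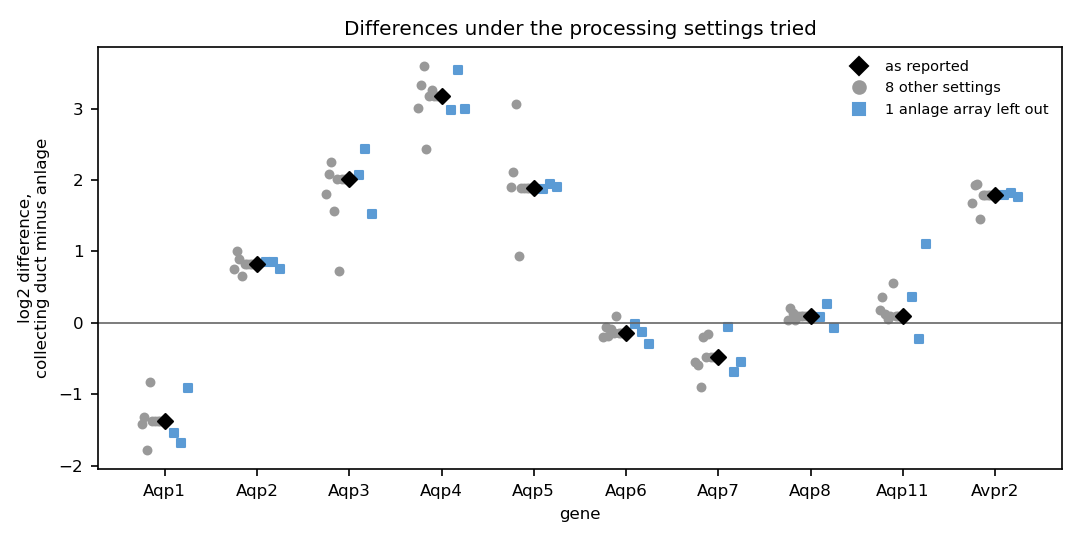
Log2 difference of each gene (y axis, collecting duct minus anlage mean; genes on the x axis) as reported (black diamonds), under 8 other processing settings (grey circles) and with an anlage array left out (blue squares). Aqp2, Aqp3, Aqp4, Aqp5 and Avpr2 stay above 0 and Aqp1 and Aqp7 below 0 in every setting shown, whereas Aqp6, Aqp8 and Aqp11 cross it. The Aqp7 value without anlage array 1 is from its second probe set.

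Other genes of the vasopressin and aquaporin-2 pathway, from lists chosen with earlier results known, showed no common direction. Of 63 listed genes 61 were measured and 53 tested. Of these 29 were higher and 24 lower in the duct array, where 45.1% of all tested genes were higher. Above all anlage arrays lay 13 and below all of them 9, against 17.3% and 24.3% of all tested genes. At an unadjusted p under 0.05 by limma 3 were higher and 2 lower, while the adjusted test called 0. The median difference of the 53 was 0.04, against −0.06 for all tested genes.

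Of the 4 tested receptors that act beside or against Avpr2, 3 were lower and 1 higher. Ptger3, a prostaglandin E2 receptor that opposes vasopressin in the tubule and also marks the thick ascending limb, stood at 8.41 in the collecting duct and at 9.72, 11.57 and 11.74 in the anlage, a difference of −2.60 ± 0.90 (SE). Avpr1a, the vasopressin receptor that signals through calcium, stood at 8.16 against 9.06, 9.33 and 9.78, a difference of −1.23 ± 0.55 (SE) with an unadjusted p of 0.0638 by limma. The difference of Avpr1a was thus opposite in sign to that of Avpr2, though neither passed over all genes and the difference between them was not tested. Below the filter, Avpr1b, the pituitary receptor, and Ptger1, another prostaglandin E2 receptor, lay above all anlage arrays. Their differences were 0.86 and 0.82, while P2ry2, also below the filter, differed by −0.005. Ptger3 is also among the loop markers given above.

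In the cyclic AMP cascade 7 of 15 tested genes were higher and 8 lower, with a median difference of −0.02. Pde4d, a phosphodiesterase that breaks down cyclic AMP, had the largest difference, at 7.85 in the collecting duct and 9.44, 10.21 and 11.14 in the anlage. Its difference was −2.41 ± 0.75 (SE), with an unadjusted p of 0.0183 by limma. Prkacb, a catalytic subunit of protein kinase A, differed by −1.06 ± 0.73. Genes that move aquaporin-2 between vesicles and membrane were split as well, with 8 of 20 higher and 12 lower, moesin (Msn), which links actin to the membrane, differing by −1.24 ± 0.58 (SE) and the recycling GTPase Rab11a by 0.91 ± 0.69.

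The 4 tested genes of aquaporin-2 turnover were all higher in the duct array, 1 of them (Stub1, a ubiquitin ligase that acts with chaperones) above all anlage arrays, with none at an unadjusted p under 0.05 by limma. Of all tested genes 45.1% were higher and 17.3% lay above all anlage arrays. Stub1 and the ubiquitin ligase Nedd4 spread little within the anlage, with differences of 0.35 and 0.15, whereas Cul5 and Nedd4l spread widely. Cul5, a ubiquitin ligase scaffold, stood at 13.32 in the collecting duct and at 13.51, 9.27 and 12.28 in anlage arrays 1, 2 and 3. Nedd4l, a ubiquitin ligase of the tubule, stood at 14.34 against 14.77, 10.36 and 13.50. For Cul5 and Nedd4l the collecting duct value lay under that of anlage array 1, and array 2, with the highest Gapdh ratio, was the low array.

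Transcription factors of the collecting duct had higher values for all 9 tested genes, against 45.1% of all tested genes, and 8 lay above all anlage arrays, against 17.3%. Gata3 and Elf5, whose families bind the GATA and ETS cores marked in the promoters, differed by 3.53 ± 0.84 and 4.11 ± 0.90 (SE). Whether these factors act on any of the members was not tested, and the Aqp3 and Aqp5 windows held neither core. At an unadjusted p under 0.05 by limma 3 of the 9 were higher, against 1.18% of all tested genes, and the adjusted test called 0. The list was drawn up with such differences already known, so its direction is not independent evidence, and Gata3, Elf5 and Ehf are also among the collecting duct markers. The urea transporter Slc14a2, which works with the water channels to concentrate urine, stood at 9.16 against 9.49, 9.31 and 9.19, the lowest of the 4 arrays by a small margin.

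**Figure D4:**
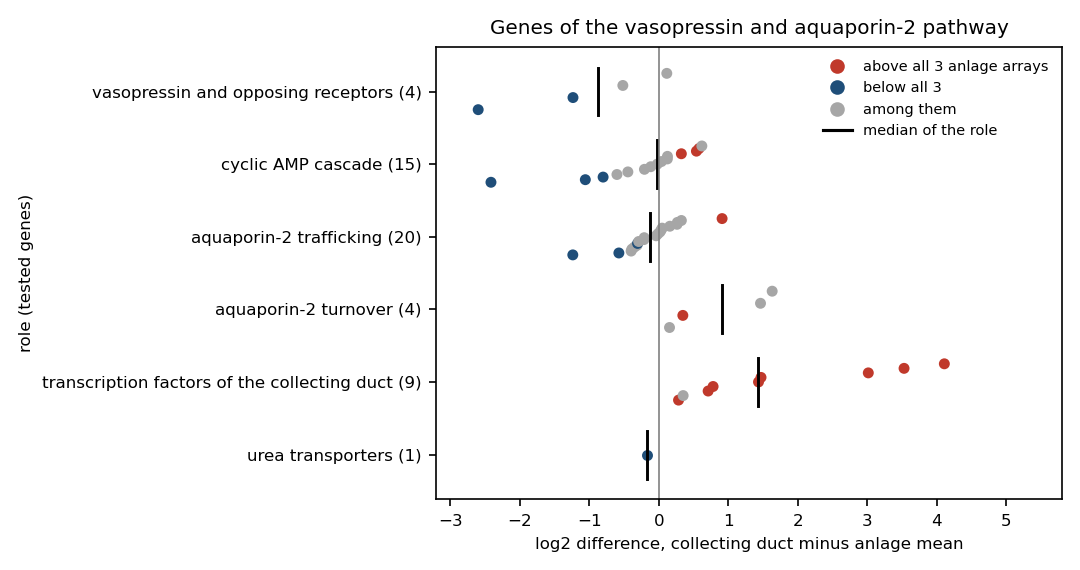
Log2 difference of the collecting duct array from the anlage mean (x axis) for 53 tested pathway genes, a point each, by role (y axis, number of tested genes in brackets), coloured by whether the collecting duct lay above all, below all or among the anlage arrays, with a black bar at the median of each role. Transcription factors lie above 0 for all 9 genes, with a median of 1.43, while the cyclic AMP and trafficking genes spread around 0.

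The genes whose log2 values over the 4 arrays were most like those of Avpr2 were Sowahb, Ppp1r3b and Abca3. Their root mean square distances from it were 0.08, 0.09 and 0.12 log2 units after each gene was centred on its own mean. For Aqp2 they were Chd2, Exoc1 and Zfp90, at 0.02, 0.03 and 0.04. With 4 arrays and 12642 genes close matches are common, and the likeness is a description of these arrays alone.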

How the data were processed

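RNA from laser-captured pools was hybridised to 1 array per pool. The deposited intensity values, on a linear scale, were produced in GCOS, a program for array scans, according to the submitters' processing notes, which name no version or algorithm; the genome build is not given in the sources used here. Amplification took 2 rounds and the label was biotin, per the labels' protocols. The number of arrays limits the precision.

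The arrays, which shared at most 3 identical values in any pair, were quantile normalized, and log2(signal + 109.6) was taken, the offset being the 25th percentile. Of 45101 probe sets 64 were controls, 34945 had a single symbol, 932 several and 9160 none listed; only single-symbol sets were used, and 34741 of them matched RefSeq by gene number. The brightest probe set stood for a gene. Genes with a mean under 8.416, the 40th percentile, were not tested. limma 3.58.1 in R 4.3.3 (lmFit, eBayes with trend, two-sided, Benjamini-Hochberg, threshold 0.05) compared 1 array with 3, with 2 residual and 4.04 prior degrees of freedom; the lone array was assumed to vary like the others. The fit was also run on simulated data in which the lone array varied like the others, so that assumption was not tested. The alternatives changed the normalization, offset, filter, probe set rule, variance trend and arrays. Named were all members, the 2 tested genes per pathway role with the largest absolute difference, and the 3 genes nearest to Aqp2 and to Avpr2; other named genes were chosen after their values were seen. Members and lists were chosen with earlier results of these data known.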

Additional observations from a re-analysis of the deposited data

How the results depend on the processing

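No paired analysis was possible because the groups share only replicate number 3. Over 11 alternatives no member passed over all genes where it was tested. Aqp5, Aqp7 and Aqp8 were tested only without the filter, and Aqp6 only there, with the smaller offset and without array 3. In value Aqp2, Aqp3, Aqp4, Aqp5 and Avpr2 were higher and Aqp1 and Aqp7 lower in the duct array each time. For Aqp7 the value without array 1, −0.06, came from the second probe set, which differed by 0.17 with all arrays. Leaving out an anlage array gave 0 to 3 genes called higher and 0 to 11 lower over all genes, the calls coming without array 2, where the spread rests on 2 arrays. The number of tested members below all anlage arrays was 1; it was 2 without the filter and 1 to 2 with an array left out. The Aqp11 difference ran from −0.23 to 1.11 with an array left out, the negative value without array 2, where the brightest probe set was unchanged. Scaling to a common median moved the median difference of all tested genes from −0.06 to −0.24. Ranges over all settings were 2.44 to 3.59 for Aqp4, 1.46 to 1.94 for Avpr2, 0.73 to 2.43 for Aqp3, 0.65 to 1.00 for Aqp2 and −1.78 to −0.82 for Aqp1. Dim signal limits Aqp5, Aqp6, Aqp7 and Aqp8, for which no detection calls were used.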

Other observations

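Aqp3 and Aqp7 are neighbouring protein-coding genes on chromosome 4 in RefSeq. The brightest probe set of Aqp3 lay above all anlage arrays and that of Aqp7 below them, with differences of 2.02 and −0.48 on the log2 scale. The other Aqp3 probe sets differed by −0.09, 0.93 and 0.05 and the other Aqp7 probe set by 0.17. Aqp7 was below the filter, and in deposited signal its collecting duct value lay above anlage array 2. On chromosome 15 the neighbours Aqp2 and Aqp5 both lay above all anlage arrays. Avpr2 lies between L1cam and Arhgap4 on the X chromosome.

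The aquaporins outside the 10 members were dim. Mip, the lens water channel, ranged from 6.92 to 7.48 over the 4 arrays and Aqp9, the aquaglyceroporin of liver, from 7.19 to 7.97. Aqp12, an aquaporin of the exocrine pancreas, stood at 8.91 in the collecting duct array and at 8.62, 7.67 and 7.42 in anlage arrays 1, 2 and 3. None of these reached the mean of 8.416 needed for testing.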
